A study of Mus musculus with 4 samples.

Results

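The creatine kinase and adenylate kinase system was examined in isolated mouse cardiomyocytes as 9 genes, found by their symbols among the 22322 genes of each library. All 9 were present, and all 9 passed the low-count filter. They were the creatine kinases Ckm, Ckmt2 and Ckb, the creatine transporter Slc6a8, the creatine synthesis enzymes Gatm and Gamt, and the adenylate kinases Ak1, Ak3 and Ak4. Of the 4 libraries, 2 came from sham-operated male mice and 2 from male mice in heart failure after transverse aortic constriction (TAC), a surgical narrowing of the aorta that raises the load on the left ventricle. No strain or genotype was stated for either group. Each library held cells of a single heart, released by Langendorff perfusion and stored frozen, so group differences are between animals and rest on n = 2 against n = 2.

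Creatine kinases move a phosphate group between ATP and creatine, which links the mitochondria, where ATP is made, to the myofibrils and pumps that use it. Ckm is the cytosolic muscle form, Ckmt2 the mitochondrial form of striated muscle, and Ckb the cytosolic form of brain, which is also the main form in the embryonic heart. Adenylate kinases balance ATP, ADP and AMP. A lower creatine kinase reserve is a known feature of failing hearts, and a return of Ckb is often counted with the fetal gene programme, so Ckb was compared with the muscle isoforms in TAC and sham.

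Because the kinases are related genes, their coding sequences were first compared, to see how far reads could be told apart. The sequences below are the 60 coding bases over which the 3 isoforms are most alike, read from the GENCODE M21 transcripts (GRCm38) and numbered from the first base of the start codon, at bases 535 to 594 in Ckm and Ckb and 637 to 696 in Ckmt2. Capitals mark the 14 positions at which the 3 isoforms are not all identical.
Ckm: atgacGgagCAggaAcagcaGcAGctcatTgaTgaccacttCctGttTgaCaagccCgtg
Ckb: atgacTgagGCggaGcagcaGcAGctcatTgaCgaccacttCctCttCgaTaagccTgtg
Ckmt2: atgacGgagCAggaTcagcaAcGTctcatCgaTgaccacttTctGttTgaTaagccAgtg

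Even here Ckb differed from Ckm at 9 of 60 bases and Ckmt2 from Ckm at 8 of 60. Over the whole coding sequence, Ckm and Ckb were identical at 75.9% of 1143 aligned bases, and Ckm and Ckmt2 at 63.9% of 1137. The longest run that Ckm and Ckb share without a mismatch was 20 bases, at coding bases 88 to 107 of both genes:
Ckm and Ckb: atggccaaggtgctgacccc

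No window of 50 coding bases was therefore common to 2 of the 3 isoforms. Other annotated genes did share such windows. Gm12892 held 309 of the 1094 windows of Ckb, and the pseudogene Ak3l2-ps held 484 of the 620 windows of Ak4. A930016O22Rik shared 281 of the 1094 windows of Ckm. None of these other genes has a row in the tables used here, and the treatment of reads that fit several genes was not stated. Ak3 shared 174 of its 632 windows, 102 of them with 1700018L02Rik, which has no row either, and 72 with its neighbour Cdc37l1, which has one. Ak3 had counts that were not whole in every library. Ckmt2 shared 36 of its 1208 windows with 1700119I11Rik, which has no row. Slc6a8, Gamt, Gatm and Ak1 shared no window with another gene. Windows were matched on both strands, so a shared window may lie on the opposite strand of the other gene.

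The libraries held 24237777 to 32118323 counts each. TAC 1 stood somewhat apart, with 47.42% of its counts on the 13 mitochondrial protein genes against 39.84% to 40.85% in the other libraries, and with a wider difference from TAC 2 (chi-square per degree of freedom 31.34) than that between the sham libraries (9.19). By the same measure TAC 2 was closer to sham 1 (26.15) and sham 2 (25.56) than to TAC 1. Values without TAC 1 are given where they change a call or a direction.

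By the deposited FPKM, a level per transcript length, the members spanned a wide range. In sham 1 and sham 2, Ckmt2 stood at 898 and 885 FPKM, and in TAC 1 and TAC 2 at 816 and 946 FPKM. Ckm followed at 796, 814, 742 and 832 FPKM in the same order of libraries. Ckmt2 was above Ckm within each of the 4 libraries, although their ranges overlapped between libraries. Then came Ak1 at 144 to 151 FPKM, Slc6a8 at 58.5 to 76.5 FPKM and Ak3 at 33.6 to 38.8 FPKM, none of which overlapped its neighbours. Ckb at 9.96 to 15.6 FPKM and Ak4 at 7.55 to 12.0 FPKM overlapped when the groups were pooled, but Ckb was above Ak4 in each library. Gamt stood at 1.29 to 2.0 FPKM and Gatm at 0.12 to 0.46 FPKM. The creatine transporter was thus far more abundant as RNA than both enzymes that make creatine.

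**Figure D1:**
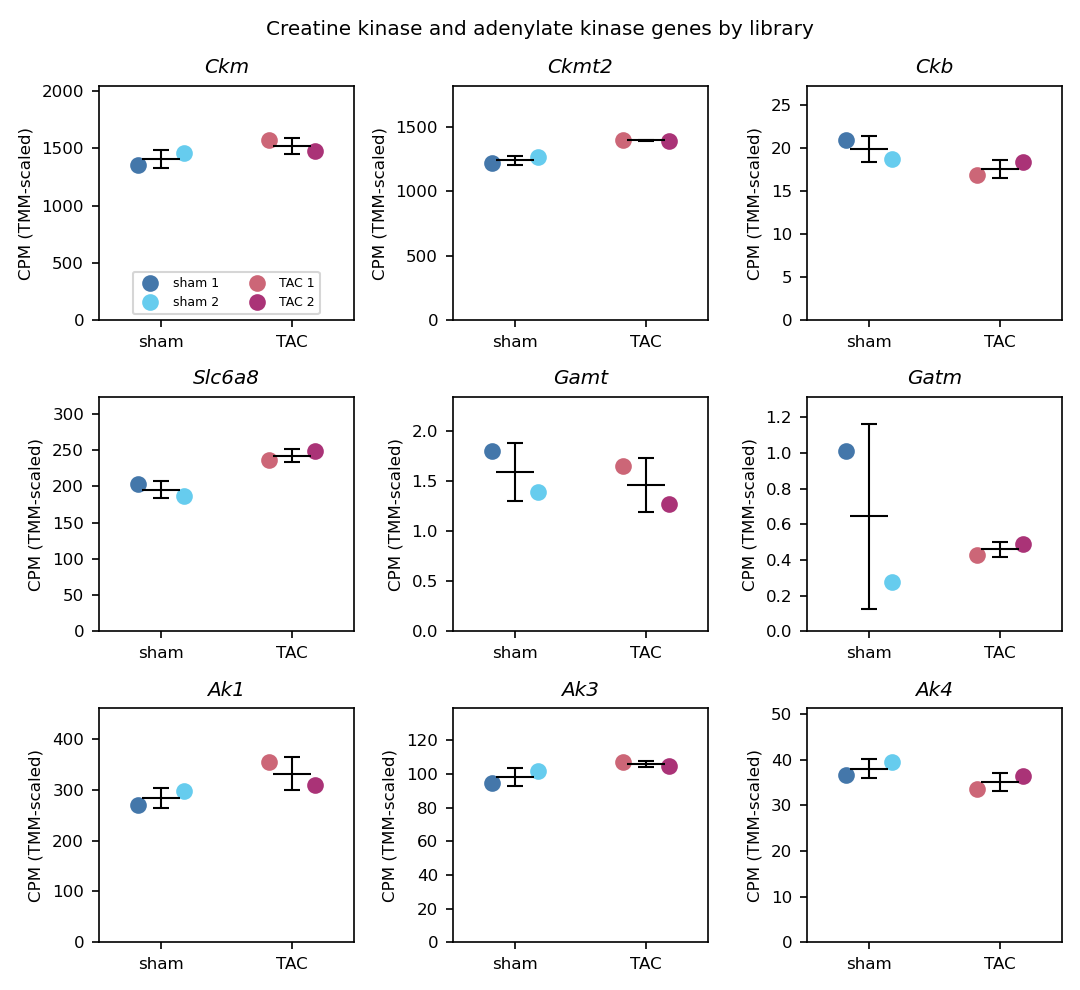
Level of each of the 9 members in CPM (counts scaled by the TMM library size; vertical axes start at 0) by group. Points are single libraries, and the horizontal mark and bar give the mean ± SD (n = 2). Slc6a8 at 187 to 204 CPM in sham and 236 to 249 CPM in TAC shows groups that are apart, as does Ckmt2 at 1217 to 1265 CPM and 1393 to 1397 CPM, and Gatm shows a sham 1 library apart from the others.

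Between TAC and sham, 0 of the 9 members had an edgeR adjusted p under 0.05 (the level for a call), against 5.01% of all 12499 genes tested. At an unadjusted p under 0.05 there were 2 members, Slc6a8 and Ak1, against 27.5% of all genes. DESeq2 called 1 member, Slc6a8, against 8.39% of all genes, and limma on the deposited FPKM called 0 against 1.56%. In TMM-scaled CPM, the ranges of TAC and sham did not overlap for 7 of 9 members, against 60.1% of all genes. This count was 3 of 9 both in counts scaled by library total (56.4% of all genes) and in the deposited FPKM (54.1%). The median log2 fold change of the members was 0.11 with TMM, where that of all genes was −0.01, but −0.08 with total-count scaling and −0.07 in FPKM. Accordingly 5 of 9 members had an estimate above 0 with TMM, and 2 of 9 on either other scale. In size without sign the median was 0.17 for the members and 0.22 for all genes.

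Ckb (ENSMUSG00000001270; chromosome 12, 111669361 to 111672338, minus strand, GRCm38) was at 20.9 CPM in sham 1, 18.8 CPM in sham 2, 16.9 CPM in TAC 1 and 18.4 CPM in TAC 2. Both TAC libraries lay below both sham libraries, with TAC 2 close to sham 2. The log2 fold change was −0.17 ± 0.11 (SE) and was not called (edgeR adjusted p = 0.336). Its 95% interval ran from −0.43 to 0.08, which is a change from −25.7% to 5.7%. The estimate was below 0 in each alternative run, from −0.36 with total-count scaling to −0.09 without sham 1 (adjusted p from 0.188 to 0.805). A higher level of Ckb in TAC was therefore not seen under any scaling tried.

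The muscle isoforms had estimates on the other side of 0 with TMM scaling. Ckm (ENSMUSG00000030399; chromosome 7, 19404776 to 19422841, plus strand) was at 1354 and 1461 CPM in sham 1 and 2 and at 1573 and 1475 CPM in TAC 1 and 2, with an estimate of 0.11 ± 0.09 on the log2 scale (adjusted p = 0.424 in edgeR; 95% interval −0.09 to 0.32). Ckmt2 (ENSMUSG00000021622; chromosome 13, 91853387 to 91876885, minus strand) was at 1217 and 1265 CPM in sham and at 1397 and 1393 CPM in TAC, with an estimate of 0.17 ± 0.08 on the log2 scale (adjusted p = 0.216 in edgeR; 95% interval −0.02 to 0.36). The TAC libraries were above the sham libraries for both genes, by a narrow margin for Ckm. The estimate for Ckm was 0.06 without sham 1, 0.07 without TAC 1 and 0.18 without sham 2. The direction of both genes depended on the scaling. With total counts, which moved the median of all genes from −0.01 to −0.20, the log2 fold change was −0.08 for Ckm and −0.02 for Ckmt2, with adjusted p of 0.75 and 0.953. Across alternatives, the adjusted p of Ckm lay between 0.338 and 0.91 and that of Ckmt2 between 0.193 and 0.953.

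The ratio of isoforms within a library does not depend on that scaling. For each 100 counts of Ckm the sham libraries held 1.55 (sham 1) and 1.29 (sham 2) counts of Ckb, and the TAC libraries 1.07 (TAC 1) and 1.25 (TAC 2). Both TAC libraries were below both sham libraries, and TAC 2 nearly met sham 2. The log2 ratio of Ckb to Ckm counts was −6.15 ± 0.19 in sham and −6.43 ± 0.15 in TAC (mean ± SD, n = 2 each), a difference of −0.29. The log2 ratio of Ckb to Ckmt2 was −5.97 ± 0.15 in sham and −6.31 ± 0.09 in TAC, a difference of −0.34. For each of these 2 ratios the exact two-sided permutation p was 0.333, the smallest that 2 against 2 libraries can give, so no call at 0.05 was possible. The difference for Ckm was −0.15 without sham 1 and −0.42 without sham 2, and −0.18 without TAC 1 and −0.39 without TAC 2. The ratio of Ckm to Ckmt2 differed by −0.06, with overlapping groups (exact permutation p = 0.667).

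**Figure D2:**
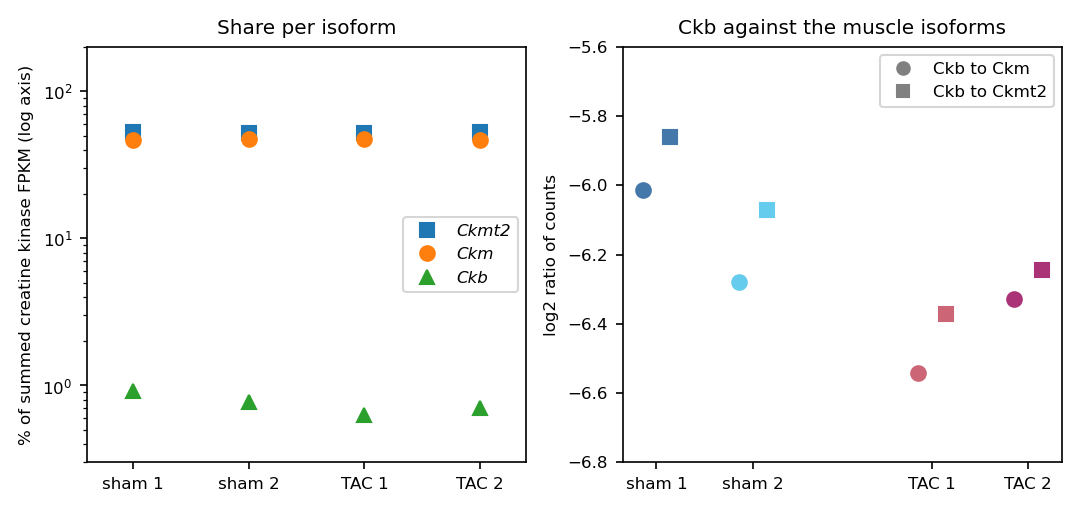
Left, share of the summed creatine kinase FPKM held by each isoform in each library, in percent on a log axis. Right, log2 ratio of Ckb counts to Ckm counts (circles) and to Ckmt2 counts (squares) in each library. Ckb holds 0.776% to 0.913% in sham and 0.635% to 0.703% in TAC, while Ckmt2 and Ckm stay near the top in all 4 libraries.

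In shares of the summed creatine kinase FPKM, Ckmt2 held 51.7% to 52.8% and Ckm 46.5% to 47.6% over the 4 libraries. The share of Ckb was 0.913% and 0.776% for sham 1 and sham 2, and 0.635% and 0.703% for TAC 1 and TAC 2. Ckmt1, the mitochondrial form of other tissues, rested on 8, 0, 5 and 3 counts and was not tested. Ckm and Ckmt2 thus made up nearly all creatine kinase RNA in both groups.

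Ckb is also made by other cell types of the heart, and markers of those cells were lower in TAC. In bulk RNA, fewer cells of a type and less RNA per cell cannot be told apart. Over all genes, 6359 of 12499 were lower in TAC, 5.01% were called and 27.5% had an unadjusted p under 0.05 in edgeR, and the same counts follow for each list. All 15 of 15 endothelial genes were lower in TAC, 4 of them called (Cdh5, Egfl7, Esam and Fabp4) and 12 at an unadjusted p under 0.05, with a summed level of 933 and 778 CPM in sham 1 and 2 and 443 and 616 CPM in TAC 1 and 2. All 15 of 15 fibroblast genes were lower, 4 of them called (Dcn, Lum, Dpt and Gsn) and 10 at an unadjusted p under 0.05, with sums of 629 and 437 CPM in sham against 262 and 354 CPM in TAC. Ckb had the same order of libraries as both sums, with sham 1 highest and TAC 1 lowest. The share of all genes with this order was not counted, and Tnrc6b, in none of the marker lists, had it too. Of the macrophage genes, 14 of 15 were tested, all 14 were lower and 0 were called (7 at an unadjusted p under 0.05 in edgeR), with sums of 151 and 77.2 CPM against 41.2 and 77.7 CPM. No gene of these 3 lists was at 0 in all libraries. The part of these cells in the Ckb values was not tested.

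Of 12 mural genes 11 were lower in TAC and 2 called (Pdgfrb and Abcc9), with 10 of 12 at an unadjusted p under 0.05 in edgeR. Abcc9 stood at 380 and 406 CPM in sham, against 28.8 and 22.6 CPM for Pdgfrb, and which cells it came from was not tested. The median log2 fold change was −0.69 for the mural list, against −0.63 for the endothelial, −0.75 for the fibroblast and −0.90 for the macrophage list. The mural sum of 2275 and 2408 CPM in sham and 2436 and 2600 CPM in TAC does not show this, since it was mostly Des, the 1 mural gene that was higher (0.37 on the log2 scale), which heart muscle cells also make. Glia and nerve genes, fixed because Ckb is abundant in brain, summed to 10.4 to 12.3 CPM in sham and 10.2 to 11.3 CPM in TAC, with 5 of 10 tested and 0 called (0 at an unadjusted p under 0.05 in edgeR). Red blood cell genes, fixed because Ak1 is abundant in red cells, summed to 84.9 and 73.8 CPM in sham and 49.9 and 125 CPM in TAC, with 5 of 8 tested and 0 called (0 at an unadjusted p under 0.05 in edgeR). The cardiomyocyte list, all 15 of 15 tested, summed to 89020 and 98520 CPM in sham and to 99620 and 94400 CPM in TAC. Of these 15 genes 4 were lower, 8 had an unadjusted p under 0.05 in edgeR, and the called genes were Tnnc1 and Csrp3, both higher in TAC.

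Slc6a8 (ENSMUSG00000019558; chromosome X, 73673150 to 73682502, plus strand), which carries creatine into the cell, had the largest estimate among the members above 5 CPM. It was at 204 CPM in sham 1, 187 CPM in sham 2, 236 CPM in TAC 1 and 249 CPM in TAC 2. The groups did not overlap, and the gap between them was wider than the spread within either. The log2 fold change was 0.31 ± 0.08 (95% interval 0.13 to 0.49), or 24.1% higher in TAC, and it missed the threshold (edgeR adjusted p = 0.062). It passed with DESeq2 (adjusted p = 0.0177) and with no low-count filter (adjusted p = 0.0248, where 10.5% of all genes were called), and ranged from 0.0177 to 0.623 over the alternatives. Scaled by total counts, its estimate was 0.13 on the log2 scale (adjusted p = 0.623 in edgeR), and in the deposited FPKM TAC 1 at 61.8 lay between sham 2 at 58.5 and sham 1 at 67.2. The mean FPKM was 62.8 in sham and 69.1 in TAC. The estimate was above 0 in each alternative run, from 0.13 to 0.37, whereas the separation of single libraries and the call depended on the processing.

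The enzymes of creatine synthesis were close to the lower limit of measurement. Gamt (ENSMUSG00000020150; chromosome 10, 80258151 to 80261012, minus strand), which methylates guanidinoacetate to creatine, had 57 and 40 counts in sham and 46 and 31 counts in TAC. Its edgeR estimate was −0.13 ± 0.32 on the log2 scale (adjusted p = 0.828), with a 95% interval from −45.6% to 54.0%. Gatm (ENSMUSG00000027199; chromosome 2, 122594467 to 122611303, minus strand), which makes guanidinoacetate, had 32 counts in sham 1 but 8 in sham 2, and 12 counts in each TAC library. Sham 1 alone was high, and both TAC libraries lay between the sham libraries. The log2 fold change of −0.50 ± 0.64 (edgeR adjusted p = 0.645) turned to 0.72 without sham 1 and was −1.12 without sham 2. That of Gamt ranged from −0.33 without TAC 1 and −0.29 without sham 2 to 0.05 without TAC 2 and 0.07 without sham 1. Sham 1 was also the library with the highest endothelial, fibroblast and macrophage sums, and the part of those cells in Gatm was not tested. At these counts a change of Gamt anywhere within its interval remained possible.

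Of the adenylate kinases, Ak1 (ENSMUSG00000026817; chromosome 2, 32621758 to 32635058, plus strand), the cytosolic form of muscle, was the most abundant. It was at 270 CPM in sham 1, 297 CPM in sham 2, 354 CPM in TAC 1 and 308 CPM in TAC 2. The groups did not overlap, but sham 2 and TAC 2 were close. The edgeR estimate was 0.22 ± 0.09 on the log2 scale (adjusted p = 0.175), or 16.7% with a 95% interval from 0.3% to 35.7%. It was 0.03 when scaled by total counts (adjusted p = 0.906 in edgeR) and 0.12 without TAC 1 (0.592), with adjusted p between 0.0772 and 0.906 across alternatives. Its FPKM lay between 144 and 151 in all 4 libraries.

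Ak3 (ENSMUSG00000024782; chromosome 19, 29020833 to 29047961, minus strand), the mitochondrial matrix form that uses GTP, was at 94.4 and 102 CPM in sham and at 107 and 105 CPM in TAC. Its log2 fold change of 0.11 ± 0.08 was not called (edgeR adjusted p = 0.369, from 0.383 to 0.93 over the alternatives). It was 0.06 without sham 1, 0.17 without sham 2 and −0.08 with total-count scaling. Ak4 (ENSMUSG00000028527; chromosome 4, 101419277 to 101466995, plus strand), also a matrix protein, was at 36.6 and 39.5 CPM in sham and at 33.7 and 36.6 CPM in TAC. The groups touched, with TAC 2 just under sham 1. The edgeR estimate was −0.12 ± 0.09 on the log2 scale (adjusted p = 0.423; 95% interval −20.2% to 6.5%), and −0.30 with total-count scaling (0.233). It was −0.06 without sham 2 and also −0.06 without TAC 1.

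Ak4 gave a different picture in the deposited FPKM, at 12.0 and 11.8 in sham and at 7.55 and 9.02 in TAC. The log2 ratio of the group means was −0.52, and limma on FPKM did not call it (adjusted p = 0.109). Count, FPKM and library total together give the transcript length behind each FPKM value. For Ak4 this length was 3.35 kb in sham 1, 3.49 kb in sham 2, 3.87 kb in TAC 1 and 4.09 kb in TAC 2. It was longer in both TAC libraries than in both sham libraries, which lowers FPKM at equal counts. A change of this size or more, a log2 ratio of 0.22 in either direction, was found for 44 of 4841 genes with at least 5 FPKM in each library (0.909%). GENCODE M21 lists 7 Ak4 transcripts of 458 to 4360 bases. Which of them gave the reads cannot be read from gene-level values, and the shared sequence with Ak3l2-ps applies here too.

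**Figure D3:**
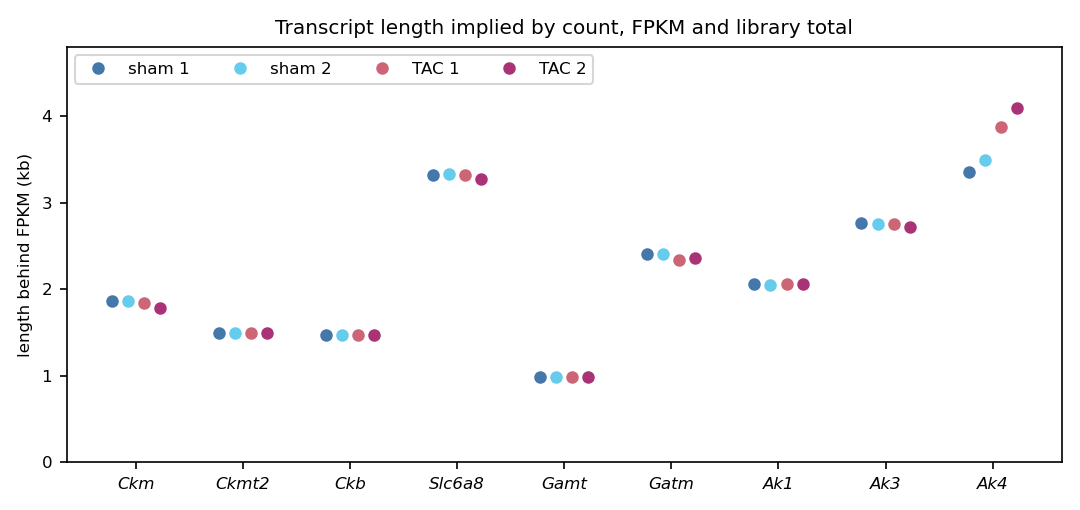
Transcript length in kb behind the deposited FPKM of each member (vertical axis, from 0), one point per library. The length of Ak4 goes from 3.35 and 3.49 kb in sham to 3.87 and 4.09 kb in TAC, while that of Ckb, Ckmt2, Gamt and Ak1 is the same in all libraries to within 0.01 kb.

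The same quantity was constant for Ckb at 1.47 kb and for Ckmt2 at 1.49 kb, the lengths of the coding transcript of Ckb (1472 bases) and of the single annotated transcript of Ckmt2 (1486 bases). For Ckm it was 1.87 kb in both sham libraries, 1.84 kb in TAC 1 and 1.79 kb in TAC 2, between its coding transcripts of 1235 and 2742 bases. Of the same 4841 genes, 17.5% changed as much or more than Ckm, so its lower value in TAC did not stand out.

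Genes that work beside the members were taken from 2 lists of 42 genes in all, of which 41 had a row and 34 were tested. Of these, 1 was called higher and 1 lower in TAC, which is 2 of 34 against 5.01% of all genes. The median log2 fold change was 0.15 with TMM, with 24 genes above and 10 below 0. The lean turned on the other scales, with 14 above and 20 below 0 both with total-count scaling (median −0.04) and in the deposited FPKM (median −0.04). At an unadjusted p under 0.05 in edgeR with TMM there were 19 of 34, against 27.5% of all genes. In TMM-scaled CPM 29 of 34 did not overlap between the groups, against 60.1% of all genes. Neither count was made on the other scales, where non-overlap of the members fell from 7 to 3 of 9. Nt5c2, a cytosolic nucleotidase, was at 34.9 and 29.7 CPM in sham and 50.5 and 48.5 CPM in TAC, a rise of 0.61 ± 0.10 on the log2 scale (edgeR adjusted p = 0.0214). Prkab1, the beta-1 subunit of the AMP-activated kinase AMPK, went from 26.8 and 28.2 CPM to 16.9 and 18.9 CPM, an estimate of −0.62 ± 0.10 on the log2 scale (adjusted p = 0.0228 in edgeR). For both genes the groups were well apart. Prkab1 was not called without TAC 1 (adjusted p = 0.0625), nor Nt5c2 with total-count scaling (0.112), and neither by limma on FPKM (0.137 for Nt5c2 and 0.0534 for Prkab1). The adjusted p ranged from 0.000236 to 0.137 for Nt5c2 and from 0.00128 to 0.0625 for Prkab1.

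The remaining kinases and the creatine-related genes were not called, 0 of 11 tested of 16 listed (5 of 11 at an unadjusted p under 0.05 in edgeR, against 27.5% of all genes). The highest estimate was that of Nme1, a nucleoside diphosphate kinase, at 0.37 (edgeR adjusted p = 0.115). The lowest was that of Slc16a12, a membrane carrier known to transport creatine, at −1.13 (edgeR adjusted p = 0.137). It had 47 and 45 counts in sham and 13 and 23 counts in TAC, and its log2 fold change was −0.69 without TAC 1 and −1.70 without TAC 2. In the list of energy exchange and AMP genes, 2 of 23 tested were called against 5.01% of all genes, 14 of 23 had an unadjusted p under 0.05 in edgeR against 27.5%, and Ampd2, an AMP deaminase, had the lowest estimate at −1.08 (edgeR adjusted p = 0.0934, from 0.0418 to 0.453 over the alternatives). The muscle deaminase gene Ampd1 had 0 counts in each library. Ak5, Ak7, Ak8 and Ak9 had at most 4 counts in any library.

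**Figure D4:**
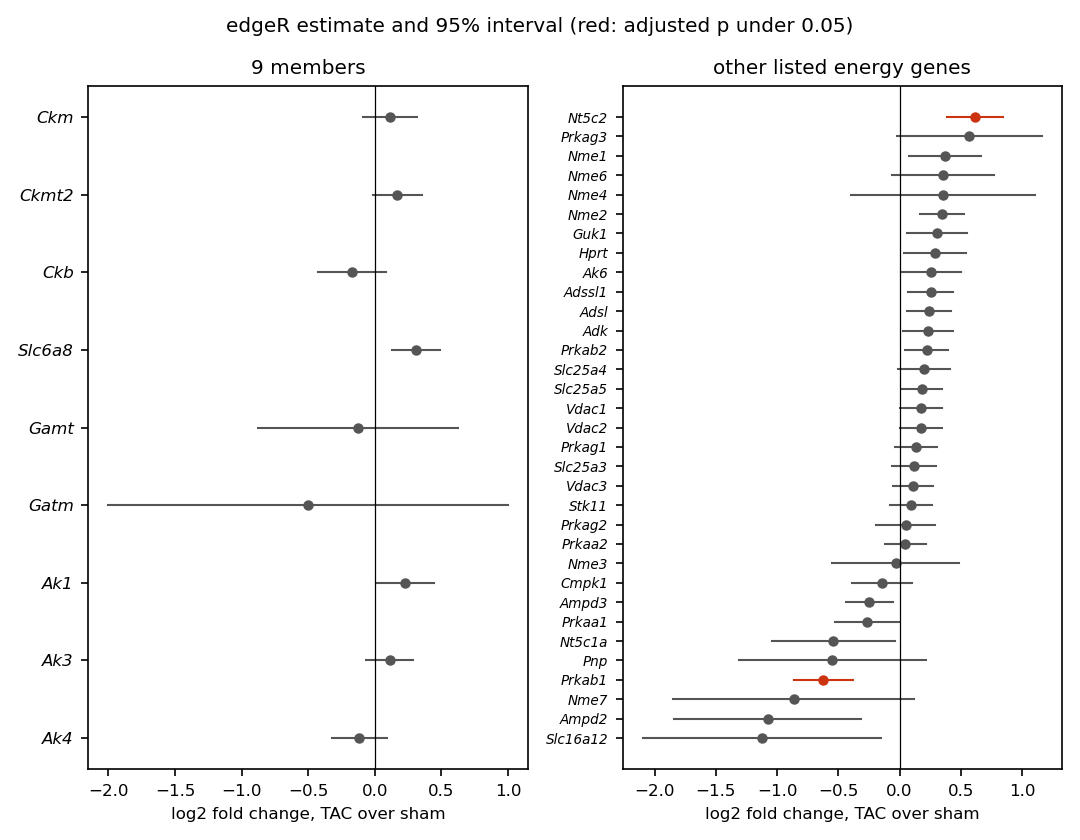
Log2 fold change of TAC over sham with its 95% interval from edgeR (horizontal axis) for the 9 members and for tested genes of both lists. Nt5c2 at 0.61 and Prkab1 at −0.62, in red, are under an adjusted p of 0.05, and the intervals of Gatm and Gamt are the widest among the members.

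To place the pattern of Ckb over the 4 libraries, it was compared with 8491 other genes of at least 5 CPM by the distance between their centred log2 CPM values. The nearest were Tnrc6b (distance 0.025), Trim24 (0.033) and Ndrg3 (0.035). Tnrc6b stood at 48.8 and 43.8 CPM in sham and at 40.1 and 43.7 CPM in TAC. Within a distance of 0.1 lay 162 of the 8491 genes, so the pattern was not particular to Ckb. Such a likeness rests on only 4 values per gene.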

How the data were processed

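Expected counts and FPKM values (normalised by transcript length and library size) were deposited by the authors for every Ensembl gene, per library. The submitters' processing notes name mm10, Bowtie2 2.2.8 and StringTie 1.3.1, without naming the program that counted reads or its strand setting. Groups came from the sample titles. Expected counts, 24237777 to 32118323 per library, were rounded and analysed in R 4.3.3 with edgeR 4.0.16 (filterByExpr, TMM, glmQLFit, glmQLFTest, Benjamini-Hochberg over 12499 genes). The SE is the log2 fold change divided by the square root of F. CPM used the TMM-scaled library sizes. The 13 mitochondrial protein genes took 39.84% to 47.42% of counts, the most in TAC 1. Pairs of libraries differed by at least 9.19 in chi-square per degree of freedom, so all were kept. The procedure was tested on simulated data.

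The members and gene lists were chosen with earlier results of these data known. Named were all members, Ckmt1, each called pathway gene, and the highest and lowest estimate of each list; another gene of this rule is not reported here or plotted. Alternatives were total-count scaling (the scaling of the study), totals without mitochondrial genes, DESeq2 1.42.0, no low-count filter, a replicate block, leaving out each library, an adjusted p under 0.1, and limma 3.58.1 on log2(FPKM + 0.1). A block with the numbers crossed, added after the data were seen, enters no range given here. Coordinates and transcripts came from GENCODE M21 and alignments from mafft 7.526.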

Additional observations from a re-analysis of the deposited data

How the results depend on the processing

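Over 14 genes named with a fold change, 131 comparisons with an alternative kept their side of the threshold, 3 gained a call and 4 lost one, while 2 had no adjusted p (Gatm and Slc16a12 with DESeq2), and no called value changed its sign. The number of members called was 1 in place of 0 with DESeq2, with no low-count filter, at an adjusted p under 0.1 and with the crossed pairing, each time Slc6a8. The number of pathway genes called was 1 with total-count scaling, 4 with no low-count filter, 0 by limma on FPKM, 5 at an adjusted p under 0.1 and 8 with the crossed pairing, against 2, and ran from 1 to 4 when a library was left out. Over all genes 901 were called with DESeq2, 1676 with no low-count filter, 195 by limma on FPKM, 1817 at an adjusted p under 0.1 and 2131 with the crossed pairing, against 626, and from 301 (without TAC 1) to 1336 (without TAC 2) when a library was left out. With the replicate block 566 genes and 0 members were called. The paper counts its mice in pairs of sham and TAC, but the sample titles do not say whether equal numbers mark a pair. Deviations of same-numbered samples from the group means had a correlation of −0.264 over genes. The crossed pairing was therefore added after the data were seen. For these counts the cause was not tested. With 2 libraries per group, the exact test of a ratio could not pass 0.05, and counts of 8 to 57 limit Gatm and Gamt.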
